A study of Homo sapiens with 39 samples.

Results

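Messenger RNA carrying 8 to 10 ribosomes was compared with mRNA carrying a single ribosome (monosomes) in 3 lines of HBEC, human bronchial epithelial cells grown as an established line. The comparison took 6 of the 39 samples of the series: the 8-10 ribosome fraction and the monosome fraction of a U2AF1 WT line, of a U2AF1 S34F mutant line and of a line labelled U2AF1 Frame Shift (FS), chosen by their labelled fraction and paired by line. U2AF1, with U2AF2, marks the end of introns for the spliceosome, and S34F is a mutation found repeatedly in lung cancer and blood disorders. Each line gave 1 library per fraction, 24 polysome libraries in all, so the 3 lines are the only replication. The labels do not say on which allele the frame shift lies, name no treatment, and do not say how many cultures were fractionated. Genotype differences between the lines are therefore part of the spread, and p-values reflect no more than the scatter among these libraries, which may be technical. All cells were grown in keratinocyte serum-free medium with pituitary extract and EGF, and RNA of the fractions was extracted with TRIzol and sequenced after NEBNext Ultra II library preparation, per the labels.

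In a sucrose gradient, an mRNA sediments further with each ribosome it carries. How many ribosomes ride on an mRNA depends on how often translation starts and on how long the coding sequence is, so short coding sequences cannot hold many, and RNAs that are not translated stay near the top of the gradient unless they sit in other heavy particles. TOP mRNAs, which encode ribosomal proteins and elongation factors and begin with a cytosine followed by a run of pyrimidines, are the classical class whose ribosome loading is switched through mTOR and LARP1.

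Levels are given as CPM, which are counts scaled by TMM-adjusted library totals, always in the order WT, S34F and FS. Every fraction is scaled to a like total, so a gene that is higher in the 8-10 fraction holds a larger share of the RNA there, and the amount of RNA in the fraction is lost. A larger amount of an mRNA and more ribosomes per copy cannot be told apart from a single fraction. The monosome libraries held 8759073, 4954028 and 3292300 counts and the 8-10 libraries 7535209, 10422595 and 11844454, so the monosome library was the shallower in the S34F and FS lines, and the part of depth in the results was not tested. The 9 basal airway markers were all detected and summed to 6036 to 10402 CPM in monosomes and 10102 to 11428 CPM in the 8-10 fraction. The secretory markers SCGB1A1 and SCGB3A1, LUM of fibroblasts and CD3E of T cells had at most 3 counts in each of the 6 libraries. Summed markers of immune cells ran from 107 to 131 CPM in monosomes and from 17.8 to 43.3 CPM in the 8-10 fraction, and those of ciliated cells from 25.9 to 32.3 and from 10.0 to 14.2 CPM, and the part of these lists in the result was not tested.

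Of 15945 genes tested, 4517 (28.3%) held a higher share of the 8-10 fraction than of monosomes and 3445 (21.6%) were lower, at an edgeR quasi-likelihood adjusted p under 0.05. Of these, 3615 were higher and 3093 lower by at least 2-fold. The log2 ratio of the 8-10 fraction over monosomes was above 0 in all 3 lines for 4413 of the higher genes and below 0 in all 3 for 3392 of the lower genes. The 3 values of one fraction lay wholly above the 3 of the other for 3523 higher and 3203 lower genes. These counts are among genes called from the same libraries, so they are no separate evidence, and the share over all genes was not counted. Without the S34F line the count of lower genes dropped to 1939, while the higher genes numbered 3716. The median log2 change of all genes was 0.075, and gene lists below are read against that value. The change went with level when genes were ranked by mean CPM and cut into 3 equal tiers. Protein-coding genes had medians of -1.18, 0.59 and 0.56 from the bottom to the top tier, with 7.63%, 40.6% and 41.7% higher. The lists below were not matched for level, and the part of level in them was not tested. Upper-quartile scaling moved the all-gene median by -0.33 and the library totals alone by -0.12. The split of the calls moved with them, from 56.7% higher to 41.7% higher (3181 against 4447 genes) under upper-quartile scaling.

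**Figure D1:**
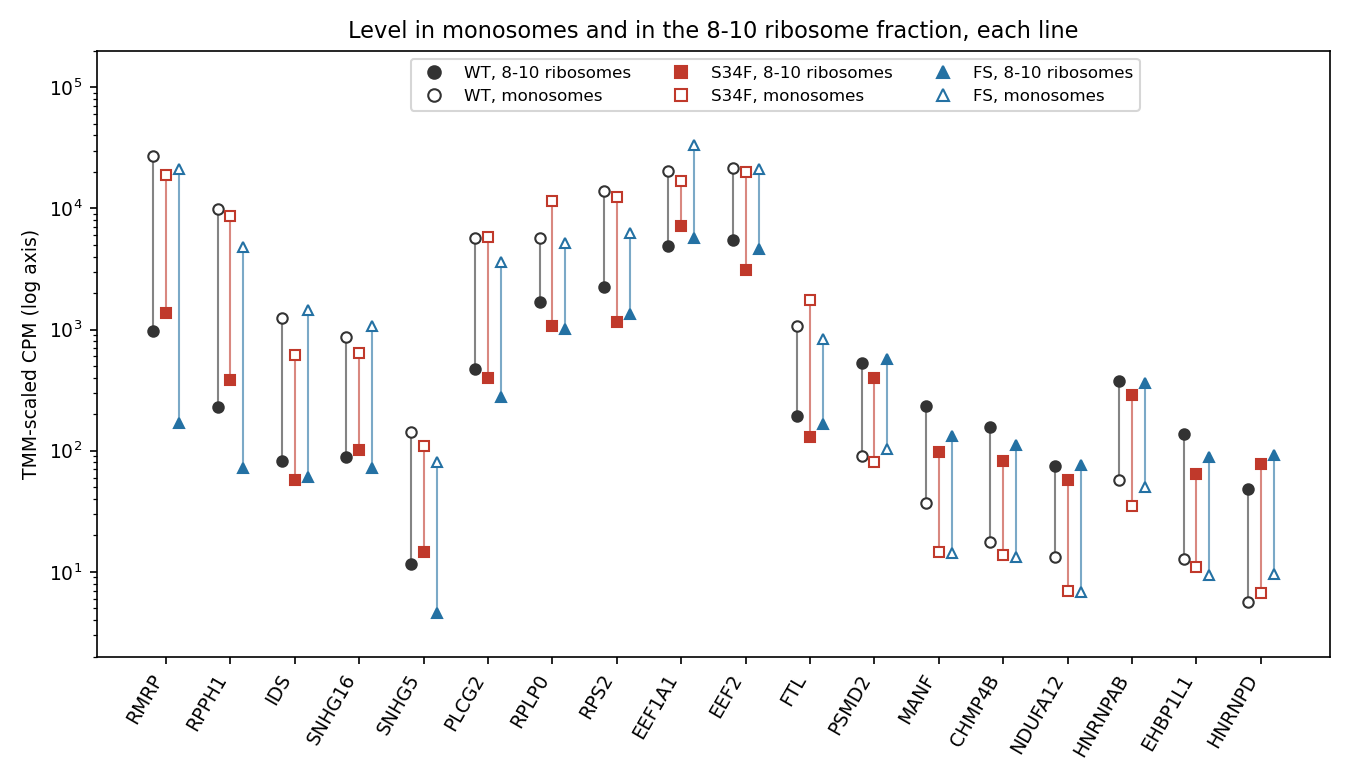
Level of 18 genes in each library, as TMM-scaled CPM on a log axis, with open symbols for monosomes, filled symbols for the 8-10 ribosome fraction and a line joining the pair of one cell line. The 11 genes on the left, from RMRP to FTL, are lower in the 8-10 fraction in each of the 3 lines, and the 7 on the right, from PSMD2 to HNRNPD, are higher in each.

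The mRNAs of the translation machinery split by class. Ribosomal protein mRNAs took a smaller share of the 8-10 fraction: 21 of 46 large-subunit genes were lower and 0 higher, with a median log2 change of -0.88, and 18 of 32 small-subunit genes were lower and 1 higher, with a median of -1.13. The other TOP mRNAs, mainly elongation and eIF3 subunits, had 9 of 19 lower and 1 higher, with a median of -0.78. The share of lower genes was thus 45.7%, 56.3% and 47.4% in these lists against 21.6% of all genes tested. Under upper-quartile scaling, and also with at least 1 CPM in each library, 33 large-subunit genes were lower, and without the FS line 11 small-subunit genes were lower. Ribosomal protein genes have many processed pseudogenes, and how the deposited counts treat reads shared with them is not stated, so their levels are uncertain.

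The annotated starts of 4 of these genes, of 4 genes that were higher and of SNHG5 and GAS5, which were lower without belonging to the list, show the sequence class the list is named for. Each window holds 10 bases before the start annotated in RefSeq (GRCh38.p14) and the first 20 bases from it, 5′ to 3′ on the strand of the gene, and capitals mark a C with at least 5 further bases that are C or T, beginning within 5 bases of the start.
RPSA, chr3:39406710-39406739, + strand: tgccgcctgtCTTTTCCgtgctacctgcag
RPLP0, chr12:120201092-120201121, - strand: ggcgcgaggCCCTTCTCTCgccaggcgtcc
RPS6, chr9:19380217-19380246, - strand: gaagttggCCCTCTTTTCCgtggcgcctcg
EEF1A1, chr6:73521013-73521042, - strand: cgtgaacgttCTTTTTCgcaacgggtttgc
PSMD2, chr3:184299231-184299260, + strand: gggtgcgcgcgcagcgggccggcagtggcg
HNRNPD, chr4:82373972-82374001, - strand: ccgttcttccgtcggccattttaggtggtc
HNRNPAB, chr5:178204523-178204552, + strand: cggcattgtcaggcggcggcaccgcgcggg
MANF, chr3:51385281-51385310, + strand: ggtgcggttcagtcggtcggcggcggcagc
SNHG5, chr6:85678714-85678743, - strand: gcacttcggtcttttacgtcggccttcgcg
GAS5, chr1:173869026-173869055, - strand: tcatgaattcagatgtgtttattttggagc

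The motif, a C followed by 5 or more C or T on the gene's strand, stood at 26 of 37 large-subunit starts (70.3%), 20 of 25 small-subunit starts (80.0%) and 10 of 13 starts of the other TOP mRNAs (76.9%), against 11.1% of all 35116 RefSeq promoters in the table. Among other lists that were mostly higher, it stood at 6 of 31 initiation and termination factor starts (19.4%), 4 of 26 proteasome starts (15.4%), 4 of 67 mitochondrial ribosomal protein starts (5.97%) and 1 of 26 synthetase starts (3.85%). Host genes of small nucleolar RNAs, which were mostly lower, had it at 7 of 19 starts (36.8%). It stood at 8.93% of 3740 higher and 13.3% of 2420 lower genes with a promoter, a minority of both. The shares moved with the definition. With 4 pyrimidines after the C they were 63.2% for host genes, 29.0% for initiation and termination factors and 23.1% for the proteasome. They were then 26.9% for synthetases, 22.4% for mitochondrial ribosomal proteins and 22.5% for all tested genes. Over all 12325 tested genes with a promoter, the 1436 with the motif had a median log2 change of -0.041 and were higher in 23.3% and lower in 22.5% of cases. The 10889 without it had a median of 0.22, with 31.3% higher and 19.3% lower. The medians of the ribosomal protein lists lay further below than that of all genes with the motif.

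RPLP0, the stalk protein that carries P1 and P2 on the large subunit, stood at 5704, 11600.3 and 5223 CPM in monosomes and at 1690.5, 1068 and 1006 CPM in the 8-10 fraction. The groups did not overlap, and the fitted log2 change was -2.47 (SE 0.36, adjusted p = 2.8e-05). Its partner RPLP1 went from 2249, 4148 and 2048 to 504, 248 and 219 CPM, a change of -3.03 (SE 0.44, adjusted p = 2.6e-05), the largest of its list. RPS2 stood at 13980.1, 12332 and 6317 CPM in monosomes and 2237, 1149 and 1333 CPM in the 8-10 fraction, and its change was -2.68 (SE 0.36, adjusted p = 1.3e-05). RPSA, the laminin receptor protein of the small subunit, went from 4474, 6495 and 3697 to 958, 802 and 656 CPM, with a change of -2.53. RPS6, the S6 kinase substrate whose start is shown above as a textbook TOP mRNA, had 1295, 1443 and 999.7 CPM in monosomes and 919, 834 and 777 CPM in the 8-10 fraction, a change of -0.54 that was not called (adjusted p = 0.19), although upper-quartile scaling (0.013), library totals alone (0.021) and at least 1 CPM in each library (0.013) brought its adjusted p under 0.05. RPS26 was the 1 small-subunit gene that was higher, at 60.7, 31.7 and 21.1 CPM against 196, 102 and 106 CPM, a change of 1.93 (SE 0.46, adjusted p = 0.0016).

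EEF1A1, which brings aminoacyl-tRNA to the ribosome, was among the most abundant RNAs of monosomes, at 20226, 16882 and 33387 CPM, and fell to 4937, 7102 and 5667 CPM in the 8-10 fraction. The change was -1.93 (SE 0.35, adjusted p = 1.7e-04), and its many pseudogenes make the level uncertain. EEF2, the translocase of elongation, went from 21440.3, 20130.4 and 21137 to 5504, 3100.2 and 4621 CPM, a change of -2.19 (SE 0.39, adjusted p = 1.4e-04), with all 3 lines near a log2 ratio of -2 or below. PABPC1, the cytoplasmic poly(A)-binding protein, had the largest change of the list, -2.7, from 1831, 1185 and 3477 to 255, 347 and 253 CPM. EIF4A2, a helicase paralog of the initiation complex, went the other way, at 58, 59.2 and 109.5 against 108, 171 and 137 CPM (log2 change 0.97, SE 0.29, adjusted p = 0.0086). Without the S34F line its adjusted p was 0.096.

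Initiation and termination factors outside the TOP list took a larger share of the 8-10 fraction: 25 of 35 were higher and 0 lower, with a median of 1.52. EIF3A, the large scaffold of eIF3, had 20.9, 22.2 and 24.2 CPM in monosomes and 85.9, 184 and 113 CPM in the 8-10 fraction, a change of 2.43 (SE 0.31, adjusted p = 8.9e-06). EIF4H, a cofactor of the eIF4A helicase, went from 179, 146 and 183 to 775, 551 and 720.3 CPM, and its 3 lines gave log2 ratios of 2.11, 1.91 and 1.97. EIF2S1, the eIF2 alpha subunit phosphorylated under stress, had ratios of 0.97, 3.08 and 1.61, lowest in WT and highest in S34F, and a change of 2.0 (SE 0.36, adjusted p = 1.6e-04). The medians of the initiation list and of the TOP list with its elongation factors lay on opposite sides of the all-gene median.

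Aminoacyl-tRNA synthetases, which charge tRNAs, had 28 of 37 higher and 3 lower, with a median of 1.03. Fewer were higher without the S34F line (15), without the FS line (18) or under upper-quartile scaling (17). YARS, the tyrosine enzyme, stood at 86.9, 63.6 and 62.4 CPM in monosomes and 358, 259 and 381 CPM in the 8-10 fraction, a change of 2.22 (SE 0.29, adjusted p = 1.2e-05). HARS, the histidine enzyme, went from 17.2, 19.3 and 19.9 to 72, 69.4 and 76.2 CPM, with ratios of 2.0, 1.8 and 1.89. QARS, the glutamine enzyme, was lower, from 637, 538 and 542 to 142, 115 and 122 CPM. Its 3 ratios of -2.15, -2.21 and -2.14 lay within 0.1 of each other, and the change was -2.17 (SE 0.32, adjusted p = 2.7e-05). The other lower members, named after their values were seen, were the mitochondrial enzymes AARS2, with a change of -0.77, and TARS2, with -0.63. Without the S34F line their adjusted p were 0.21 and 0.39, and without the FS line 0.12 and 0.073, while TARS2 also had 0.12 without the WT line.

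**Figure D2:**
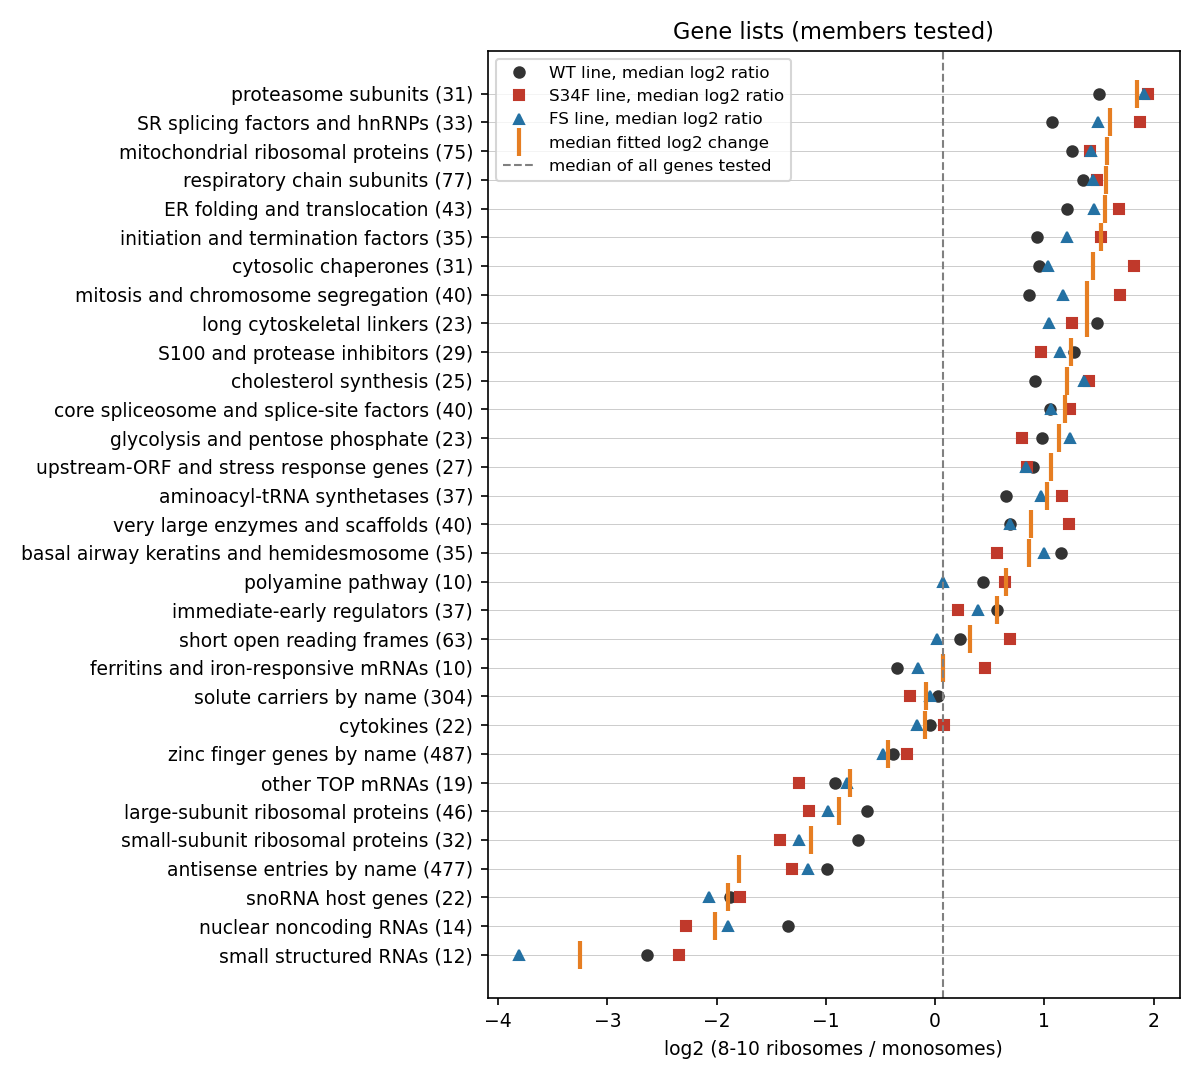
Median log2 ratio of the 8-10 ribosome fraction over monosomes for 31 gene lists in each line (symbols) and the median fitted log2 change (orange bars), with the number of members tested in brackets and the median of all genes as a dashed line. The noncoding lists and the TOP lists lie left of the dashed line in all 3 lines, and the proteasome list lies furthest right.

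Genes of protein folding and removal were mostly higher in the 8-10 fraction. Each of the 31 proteasome subunits tested was higher, with a median of 1.85 and medians of 1.5, 1.95 and 1.91 in the WT, S34F and FS lines. PSMA3, a ring subunit of the 20S core, had 6.61, 7.00 and 9.42 CPM in monosomes and 36.3, 68.8 and 60.2 CPM in the 8-10 fraction, and the groups did not overlap (log2 change 2.89, SE 0.44, adjusted p = 4.6e-05). PSMC1, an ATPase of the 19S base, went from 7.05, 13.8 and 12.5 to 32.9, 89.8 and 62.6 CPM, a change of 2.49 (SE 0.36, adjusted p = 2.6e-05). PSMD2, a 19S scaffold subunit named here for its high level after its values were seen, went from 90.7, 80.6 and 103 to 534, 396 and 566 CPM, with ratios of 2.54, 2.28 and 2.45.

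Cytosolic chaperones had 25 of 31 higher and 0 lower, with a median of 1.45. AHSA1, the activator of the HSP90 ATPase, had 11.8, 9.11 and 0.764 CPM in monosomes and 65.6, 58.7 and 57.9 CPM in the 8-10 fraction, a change of 3.09 (SE 0.46, adjusted p = 3.5e-05). Its FS monosome level rested on 3 counts. The ratios were 2.38 in WT and 2.56 in S34F, and the change without the FS line was 2.6. CDC37, the kinase-loading cochaperone, went from 46.2, 26.8 and 26.5 to 219, 113 and 172 CPM, and its change was 2.36. HSP90AA1, the inducible HSP90, had ratios of 0.95, 2.8 and 1.19 and a change of 1.74 (SE 0.31, adjusted p = 1.6e-04), with the S34F line above the others.

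Endoplasmic reticulum folding and translocation genes had 35 of 43 higher and 1 lower, with a median of 1.55. MANF, a secreted ER stress protein, went from 37.2, 14.7 and 14.3 to 233, 97.7 and 133 CPM, a change of 2.87 (SE 0.40, adjusted p = 2.1e-05). DAD1, a subunit of the oligosaccharyltransferase that adds N-glycans, had 58.7, 32 and 24.5 CPM in monosomes and 354, 107 and 165 CPM in the 8-10 fraction, a change of 2.47 (SE 0.40, adjusted p = 6.6e-05). OST4, the very short subunit of the same enzyme, was the 1 member that was lower, from 70.8, 44.1 and 33.6 to 24.6, 26.1 and 12 CPM (log2 change -1.33, SE 0.50, adjusted p = 0.03). Without the FS line its adjusted p was 0.13. DAD1 and OST4 encode partners in one complex and lay on opposite sides.

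Mitochondrial genes encoded in the nucleus were mostly higher, with similar medians in the lines. Respiratory chain subunits had 52 of 77 higher and 2 lower, and the medians of the lines were 1.35, 1.48 and 1.45. Mitochondrial ribosomal proteins had 58 of 75 higher and 0 lower, with line medians of 1.25, 1.42 and 1.42. Their mRNAs are short, with a median deposited length of 1267 bases, and the ribosomal proteins of the cytosol, which lay on the other side, are shorter still, at 745.5 and 720.5 bases for the large and small subunits. NDUFA12, an accessory subunit of complex I, had 13.2, 7.00 and 6.88 CPM in monosomes and 74.1, 57.8 and 76.6 CPM in the 8-10 fraction, a change of 2.96 (SE 0.47, adjusted p = 6.2e-05). MRPL19, of the large mitochondrial subunit, went from 13.3, 17.3 and 17.8 to 57.6, 129 and 138 CPM, a change of 2.75 (SE 0.35, adjusted p = 9.8e-06). MRPL17, another large-subunit protein, went from 24.7, 12.6 and 14 to 163, 63.2 and 98.6 CPM, with ratios of 2.67, 2.24 and 2.73. UQCRH, the short hinge protein of complex III, was lower, from 88.9, 79 and 66 to 48.7, 51 and 21 CPM (log2 change -1.06, SE 0.36, adjusted p = 0.019), with an adjusted p of 0.19 without the FS line. NDUFV3, of complex I and named after its value was seen, was the other lower member, with a change of -0.76 and an adjusted p of 0.34 without the S34F line and 0.087 without the FS line.

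Metabolic enzymes followed the same direction. Glycolysis and pentose phosphate genes had 17 of 23 higher and 0 lower, with a median of 1.13, and 10 higher without the FS line. TPI1, triose phosphate isomerase, went from 378, 283 and 179.8 to 1605, 1079 and 1351 CPM, a change of 2.36 (SE 0.36, adjusted p = 4.1e-05). PGAM1, phosphoglycerate mutase, had ratios of 2.04, 1.91 and 1.9. GAPDH of the same pathway was not called, at 6573, 6560.3 and 3699 CPM against 7819, 4635 and 6429 CPM with an adjusted p of 0.56, and its groups overlapped. ACTB, like GAPDH a fixed gene, was higher but lost its call without the FS line (adjusted p = 0.059). Cholesterol synthesis genes had 21 of 25 higher and 1 lower, with a median of 1.21. DHCR7, the last enzyme of the pathway, went from 80.7, 81.4 and 85.3 to 435, 268 and 485 CPM, a change of 2.29 (SE 0.33, adjusted p = 2.6e-05). FDPS, which makes farnesyl pyrophosphate, had ratios of 2.0, 1.88 and 2.14. SREBF2, the transcription factor that switches the enzymes on, was the member that was lower, from 1618, 1171 and 1144 to 995, 508 and 651 CPM (log2 change -0.87, SE 0.31, adjusted p = 0.024), with an adjusted p of 0.15 without the S34F line and 0.095 without the FS line.

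Genes of mitosis and chromosome segregation had 33 of 40 higher and 2 lower, with a median of 1.39. CCNB2, a mitotic cyclin, went from 7.93, 12.3 and 12 to 23.6, 62.1 and 54.3 CPM, a change of 2.05 (SE 0.32, adjusted p = 5.0e-05). CCNA2, the cyclin of S phase and early mitosis, had ratios of 0.85, 2.75 and 1.79, lowest in WT. The lower members were SPC25 and ECT2. SPC25, a kinetochore subunit, went from 359, 416 and 388 to 153, 59.2 and 119 CPM (log2 change -1.83, SE 0.55, adjusted p = 0.0084), and its adjusted p was 0.12 without the S34F line. ECT2, the RhoA exchange factor of cytokinesis named after its value was seen, had -0.77, and leaving out any of the lines ended its call (adjusted p of 0.061 without WT, 0.087 without S34F and 0.13 without FS).

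Splicing genes were mostly higher as well. The core spliceosome list had 29 of 40 higher and 1 lower, with a median of 1.19, and the SR proteins and hnRNPs 25 of 33 higher and 0 lower, with a median of 1.61. HNRNPD, the AU-rich element binding protein AUF1, had 5.62, 6.65 and 9.68 CPM in monosomes and 48.5, 78.2 and 92.2 CPM in the 8-10 fraction. The lowest value of the 8-10 fraction stood well above the highest of monosomes, and the change was 3.32 (SE 0.36, adjusted p = 1.7e-06). HNRNPAB went from 57.1, 34.7 and 49.9 to 375, 290.4 and 363 CPM, a change of 2.86 (SE 0.28, adjusted p = 1.3e-06). DHX38, the helicase PRP16 of the second splicing step, had ratios of 2.81, 1.23 and 2.34. U2AF1 itself stood at 23.8, 14.2 and 12.7 CPM in monosomes and 103, 34.9 and 40 CPM in the 8-10 fraction (log2 change 1.73, SE 0.42, adjusted p = 0.0019), and its partner U2AF2 at 113, 103 and 99.6 and 269, 231 and 355 CPM (log2 change 1.47, SE 0.34, adjusted p = 0.0012). U2AF1L4, a paralog of U2AF1 named after its value was seen, was the lower member, with a change of -1.05 and an adjusted p of 0.12 without the S34F line and 0.073 without the FS line. NPM1, a nucleolar chaperone, had ratios of 0.24, 2.16 and 0.86 and a change of 1.16 (SE 0.34, adjusted p = 0.0072), with an adjusted p of 0.18 without the S34F line.

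Basal airway keratin and hemidesmosome genes had 21 of 35 higher and 0 lower, with a median of 0.86, and 13 higher without the WT line and 13 without the FS line. ITGB1, the beta-1 integrin, went from 230.0, 209 and 349 to 669, 1534 and 1185 CPM, a change of 2.13 (SE 0.32, adjusted p = 3.3e-05). Its partner ITGA6 had 244, 258 and 299 CPM in monosomes and 639.5, 1244 and 836 CPM in the 8-10 fraction, a change of 1.74 (SE 0.30, adjusted p = 1.3e-04). Among the keratins themselves, named after their values were seen, KRT5 had 1310.3, 3702 and 2542 CPM in monosomes and 2812, 4091 and 3958 CPM in the 8-10 fraction and was not called (adjusted p = 0.088), but it was called higher with library totals alone (0.042) and with no filter on low counts (0.022). KRT14 had ratios of 1.86, -0.97 and 1.03 and was not called either (adjusted p = 0.23). KRT17 was called higher, but its adjusted p was 0.083 without the WT line and 0.089 without the FS line. KRT5 and KRT14 are the partner keratins of basal cells, and the values of their groups overlapped.

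Secreted and calcium-binding proteins of the epithelium, the S100 proteins and protease inhibitors, had 19 of 29 higher and 0 lower, with a median of 1.25. CST6, cystatin M, went from 4.30, 8.23 and 7.13 to 29, 48.2 and 43.3 CPM, a change of 2.67 (SE 0.37, adjusted p = 2.1e-05). SPINT2, an inhibitor of membrane serine proteases, had ratios of 2.32, 1.54 and 1.95.

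Lists of named genes with very long mRNAs were mostly higher, while all 1094 genes with transcripts over 8000 bases were higher in 27.6% and lower in 26.9% of cases. Long cytoskeletal linkers, with a median deposited length of 11649 bases, had 17 of 23 higher and 0 lower, with a median of 1.39. PLEC, the linker plectin, went from 376, 448 and 288 to 2100.1, 1069 and 887 CPM, a change of 1.89 (SE 0.37, adjusted p = 3.3e-04). MYH10, non-muscle myosin IIB, had ratios of 2.5, 2.39 and 1.83 and a change of 2.39 (SE 0.29, adjusted p = 6.5e-06). Very large enzymes and scaffolds, with a median length of 13203.5 bases, had 23 of 40 higher and 0 lower, with a median of 0.87, and 14 higher under upper-quartile scaling. HUWE1, a giant ubiquitin ligase, went from 90.8, 126 and 109 to 362, 491 and 418 CPM, and its ratios of 1.98, 1.96 and 1.93 were nearly equal (log2 change 1.97, SE 0.30, adjusted p = 4.1e-05).

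Genes known for translational control were split. The upstream-ORF and stress list had 17 of 27 higher and 1 lower, with a median of 1.06, and 11 higher without the WT line. XBP1, the transcription factor of the unfolded protein response, went from 248, 60.6 and 91.4 to 662, 262 and 466 CPM, a change of 1.93 (SE 0.33, adjusted p = 1.1e-04). NFE2L1, which drives proteasome genes, had ratios of 1.99, 1.44 and 2.17. ATF4, the classical upstream-ORF mRNA, had 1490.4, 1229.7 and 1234 CPM in monosomes and 1374, 429 and 449 CPM in the 8-10 fraction and was not called (log2 change -0.74, SE 0.46, adjusted p = 0.17). ATF4 was called lower under other settings, with an adjusted p of 0.032 under upper-quartile scaling, 0.046 with library totals alone, 0.023 with at least 1 CPM in each library, 0.012 in the 6 libraries alone and 0.0059 without the WT line, whose ratio was near 0. ASNS, asparagine synthetase and a target of ATF4, was higher, with ratios of 0.90, 2.49 and 1.59 and a change of 1.71 (SE 0.31, adjusted p = 1.5e-04). ATF6, the membrane-bound factor of the unfolded protein response, was the lower member, with -0.86 (adjusted p = 0.032), and lost its call without any of the lines (adjusted p of 0.078 without WT, 0.19 without S34F and 0.091 without FS).

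The ferritins, whose translation is held back by an iron-responsive element, were among the abundant mRNAs that were lower. FTL, the light chain, went from 1064, 1765 and 842 to 194, 129.7 and 168 CPM, a change of -2.75 (SE 0.36, adjusted p = 1.3e-05). FTH1, the heavy chain, went from 1866, 3149 and 1188 to 490.3, 301 and 384 CPM, a change of -2.28 (SE 0.32, adjusted p = 2.3e-05). Both have processed pseudogenes, which makes their levels uncertain. The iron list of 10 genes had 2 higher and 3 lower, or 20% and 30%, near the 28.3% and 21.6% of all genes. Its median of 0.073 was close to the 0.075 of all genes, and moved with that median under the other scalings. Its remaining calls, named after their values were seen, were EPAS1 at -0.99, ACO1 at 0.87 and CDC42BPA at 1.07. Without the FS line their adjusted p were 0.058, 0.082 and 0.061, and ACO1 had 0.069 without the S34F line.

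Polyamine genes had 3 of 10 higher (30%, near the 28.3% of all genes) and 0 lower, with a median of 0.65. SMS, spermine synthase, went from 21.3, 24.3 and 27.5 to 67.8, 92.7 and 71 CPM, a change of 1.71 (SE 0.33, adjusted p = 3.0e-04). SMOX, spermine oxidase, had 27.8, 2.98 and 3.06 CPM in monosomes and 126, 5.93 and 6.66 CPM in the 8-10 fraction, high in WT in both fractions (log2 change 1.62, SE 0.42, adjusted p = 0.003), with an adjusted p of 0.13 without the WT line. AZIN1, which shields ornithine decarboxylase from antizyme, was the other one, with a change of 1.1 (SE 0.27, adjusted p = 0.0019). Immediate-early regulators had 12 of 37 higher and 4 lower, a share of 32.4% higher against 28.3% of all genes, with 4 higher without the FS line and 4 under upper-quartile scaling. DUSP5, a nuclear ERK phosphatase, went from 68.4, 33.8 and 33.6 to 244, 65.3 and 106 CPM, a change of 1.52 (SE 0.31, adjusted p = 4.1e-04). NR4A1, an orphan nuclear receptor, was lower, from 42.3, 39.6 and 32.6 to 22.6, 7.57 and 15.2 CPM (log2 change -1.34, SE 0.33, adjusted p = 0.0017). The other lower members, named after their values were seen, were the transcription factors EGR3 (-2.25) and EGR1 (-0.84) and ZFP36 (-1.03), which destabilizes AU-rich mRNAs. Without the S34F line the adjusted p was 0.081 for EGR3 and 0.13 for ZFP36, and without the FS line 0.19 for EGR1 and 0.076 for ZFP36.

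Cytokines and growth factors had 5 of 22 higher (22.7%) and 0 lower, against 28.3% and 21.6% of all genes, and 3 higher without the S34F line. HBEGF, an EGF receptor ligand, went from 117, 30.1 and 52.2 to 528, 95.1 and 223 CPM, a change of 1.98 (SE 0.27, adjusted p = 1.9e-05), with the level in WT several times that in S34F in both fractions. The others were IL1A (1.61), IL1B (1.49), AREG (1.11) and TGFA (0.94), of which AREG and TGFA are further EGF receptor ligands. Without the S34F line the adjusted p was 0.071 for IL1A and 0.11 for TGFA.

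Of 63 genes with short open reading frames, 13 were higher (20.6%) and 7 lower (11.1%), both under the 28.3% and 21.6% of all genes, with a median of 0.32, and 6 were higher without the FS line. RPL41, the shortest ribosomal protein, went from 1604, 1302 and 812 to 273, 324 and 153 CPM, a change of -2.36 (SE 0.47, adjusted p = 3.4e-04). RPL39 had 484, 626 and 409 CPM in monosomes and 159.9, 173 and 61.8 CPM in the 8-10 fraction, a change of -2.04 (SE 0.42, adjusted p = 4.6e-04). KRTCAP2, a membrane subunit of the oligosaccharyltransferase, was higher, from 63.6, 27.1 and 26.2 to 321, 73.1 and 119 CPM, a change of 2.08 (SE 0.43, adjusted p = 4.5e-04).

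RNAs annotated as noncoding were mostly lower in the 8-10 fraction. By RefSeq class, 469 of 752 long noncoding RNAs (62.4%) were lower and 1 was higher, with a median of -1.85, against 18.3% lower and 30.7% higher among 14538 protein-coding genes. The exception was C17orf51, at 30.1, 11.7 and 16.3 CPM in monosomes and 57.1, 28.8 and 48.6 CPM in the 8-10 fraction (log2 change 1.29, SE 0.30, adjusted p = 0.0014), named because it was the only one. The classes also differed among genes of like level, when genes were ranked by mean CPM and cut into 3 equal tiers: in the top tier, 64 of 78 noncoding RNAs (82.1%) and 16.5% of 5115 protein-coding genes were lower. Transcribed pseudogenes had 253 of 533 lower and 29 higher.

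Small structured RNAs stood at the far end, with 9 of 12 lower, 0 higher and a median of -3.25. RMRP, the RNA of RNase MRP, fell from 26833, 18934 and 21183 CPM in monosomes to 979, 1380.5 and 168 CPM in the 8-10 fraction. The change was -5.26 (SE 0.65, adjusted p = 7.7e-06). RPPH1, the RNA of RNase P, went from 9947, 8711 and 4808 to 229, 384 and 72.6 CPM, with ratios of -5.44, -4.5 and -6.03 and a change of -5.4 (SE 0.52, adjusted p = 1.2e-06). TERC, the telomerase RNA, had 71.1, 157 and 73.9 CPM in monosomes and 7.32, 19.8 and 3.69 CPM in the 8-10 fraction, a change of -3.59 (SE 0.50, adjusted p = 1.9e-05). SCARNA10, a Cajal body RNA, went from 188, 415 and 159.7 to 20.5, 48.6 and 8.99 CPM, a change of -3.47 (SE 0.46, adjusted p = 1.4e-05). In all 4 the FS line gave the lowest level in the 8-10 fraction. The nuclear noncoding list, which shares RPPH1, RMRP and TERC with this one, had 10 of 14 lower and 0 higher, with a median of -2.01. MALAT1, the nuclear speckle RNA, was not called, at 1157, 2156 and 1121 CPM against 935, 2703 and 852 CPM. NEAT1, another fixed gene, was lower but lost its call without the S34F line (adjusted p = 0.13) and without the FS line (0.10).

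Host genes of small nucleolar RNAs, spliced RNAs that carry short reading frames and are known to be degraded when translated, had 18 of 22 lower and 0 higher, with line medians of -1.88, -1.78 and -2.07. SNHG16 went from 876, 635 and 1066 to 88, 102 and 71.7 CPM, a change of -3.29 (SE 0.34, adjusted p = 1.3e-06). SNHG5 went from 144, 108 and 80.5 to 11.6, 14.6 and 4.57 CPM, a change of -3.54 (SE 0.41, adjusted p = 3.6e-06). GAS5, a host gene often named among TOP RNAs but without the motif at the start shown above, had ratios of -2.03, -1.85 and -2.59. Antisense entries had 300 of 477 lower and 1 higher, and 195 lower without the S34F line. FAM53B-AS1 was listed at 0 in the 3 libraries of the 8-10 fraction and at 46.5, 55 and 47.1 CPM in monosomes. The use of strand in counting is not stated, so reads of an antisense RNA and of its partner cannot be told apart. The 1 higher antisense entry was NCBP2-AS2, at 10.2, 6.65 and 6.37 against 31.4, 11.5 and 12.5 CPM (log2 change 1.2, SE 0.47, adjusted p = 0.036), named because it was the only one. Without the WT line its adjusted p was 0.22 and without the FS line 0.053, and under upper-quartile scaling it was 0.11. Between 7 and 2 ribosomes NCBP2-AS2 was also higher (log2 change 2.68, SE 0.48, adjusted p = 2.1e-04). The antisense list goes by name alone. By RefSeq class NCBP2-AS2 was not counted as a long noncoding RNA, since C17orf51 was the only higher one there. Replication-dependent histones and entries named MIR or LINC were not analysed here.

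Gene families defined by name alone were less uniform. Zinc finger genes had 147 of 487 lower (30.2%) and 39 higher (8.01%), against 21.6% and 28.3% of all genes, with a median of -0.43. Their level was low, with a median log2(CPM + 1) of 3.33, 3.46 and 3.55 in monosomes. Protein-coding genes were lower in 22.5% and higher in 7.63% of cases in the bottom tier of level, and in 16.4% and 40.6% in the middle tier. The part of level in the zinc finger counts was not tested. ZNF358 went from 367, 259 and 130.2 to 58.7, 29.7 and 20.4 CPM, a change of -2.77 (SE 0.33, adjusted p = 4.2e-06). ZNF219 had ratios of -2.44, -2.72 and -2.79 and a change of -2.64. Solute carriers had 70 of 304 higher and 74 lower, shares of 23.0% and 24.3% that lie near the 28.3% and 21.6% of all genes, and 46 lower without the S34F line. SLC39A7, an ER zinc transporter, was higher, from 20.9, 19.8 and 14.5 to 148, 82.1 and 86 CPM (log2 change 2.5, SE 0.28, adjusted p = 3.0e-06). SLC25A23, a mitochondrial ATP-Mg carrier, was lower, from 199.99, 179 and 221 to 25.7, 20.2 and 20.5 CPM (log2 change -3.18, SE 0.36, adjusted p = 3.4e-06).

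Genes with a large change in every line were taken as the 12 higher and 12 lower genes whose weakest line ratio was largest. Besides HNRNPD, HNRNPAB, MANF, CST6, NDUFA12 and AHSA1, the higher genes were WRNIP1, CHMP4B, SAE1, EHBP1L1, STC2 and LAPTM4A. CHMP4B, the ESCRT-III subunit that closes membrane necks, went from 17.5, 13.8 and 13.2 to 156, 81.5 and 111 CPM, a change of 2.96 (SE 0.35, adjusted p = 3.6e-06). EHBP1L1, a membrane-trafficking adaptor, went from 12.8, 10.9 and 9.42 to 137, 64.1 and 89.3 CPM, a change of 3.13 (SE 0.33, adjusted p = 1.3e-06). SAE1, of the SUMO-activating enzyme, had ratios of 2.47, 2.76 and 2.88. STC2, the secreted stanniocalcin 2, had ratios of 2.45, 2.49 and 2.53, which differ by less than 0.1. The lower genes were RPPH1, RMRP, SCARNA10, TERC, DANCR, SNHG5, PLCG2, IDS, FRS3, SLC25A23, ST6GALNAC6 and PANX2. PLCG2 and those after it encode proteins. PLCG2, a phospholipase C of immune signalling, stood at 5723, 5753 and 3617 CPM in monosomes and 472, 395 and 277 CPM in the 8-10 fraction, a change of -3.71 (SE 0.40, adjusted p = 1.7e-06). IDS, the lysosomal iduronate sulfatase, which has a neighbouring pseudogene copy, went from 1234, 622 and 1439 to 82.7, 57 and 60.8 CPM, a change of -3.99 (SE 0.33, adjusted p = 9.5e-08). FRS3, an FGF receptor adaptor, had ratios of -3.36, -3.36 and -3.38.

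The fractions with 7 and with 2 ribosomes, 6 libraries that the comparison did not use but that come from the same 3 lines and share its fit, gave 3536 genes higher (22.2%) and 1993 lower (12.5%) with 7 ribosomes. Without the WT line these counts were 1505 and 295. Genes higher in both comparisons numbered 1932, which is 42.8% of those higher in the 8-10 fraction and 54.6% of those higher with 7 ribosomes. Genes lower in both numbered 1274, or 37.0% and 63.9% of the 2 lists. Opposite calls were made for 170 genes higher and 108 genes lower in the 8-10 fraction. A further 2415 higher and 2063 lower genes of the 8-10 fraction were not called between 7 and 2 ribosomes.

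**Figure D3:**
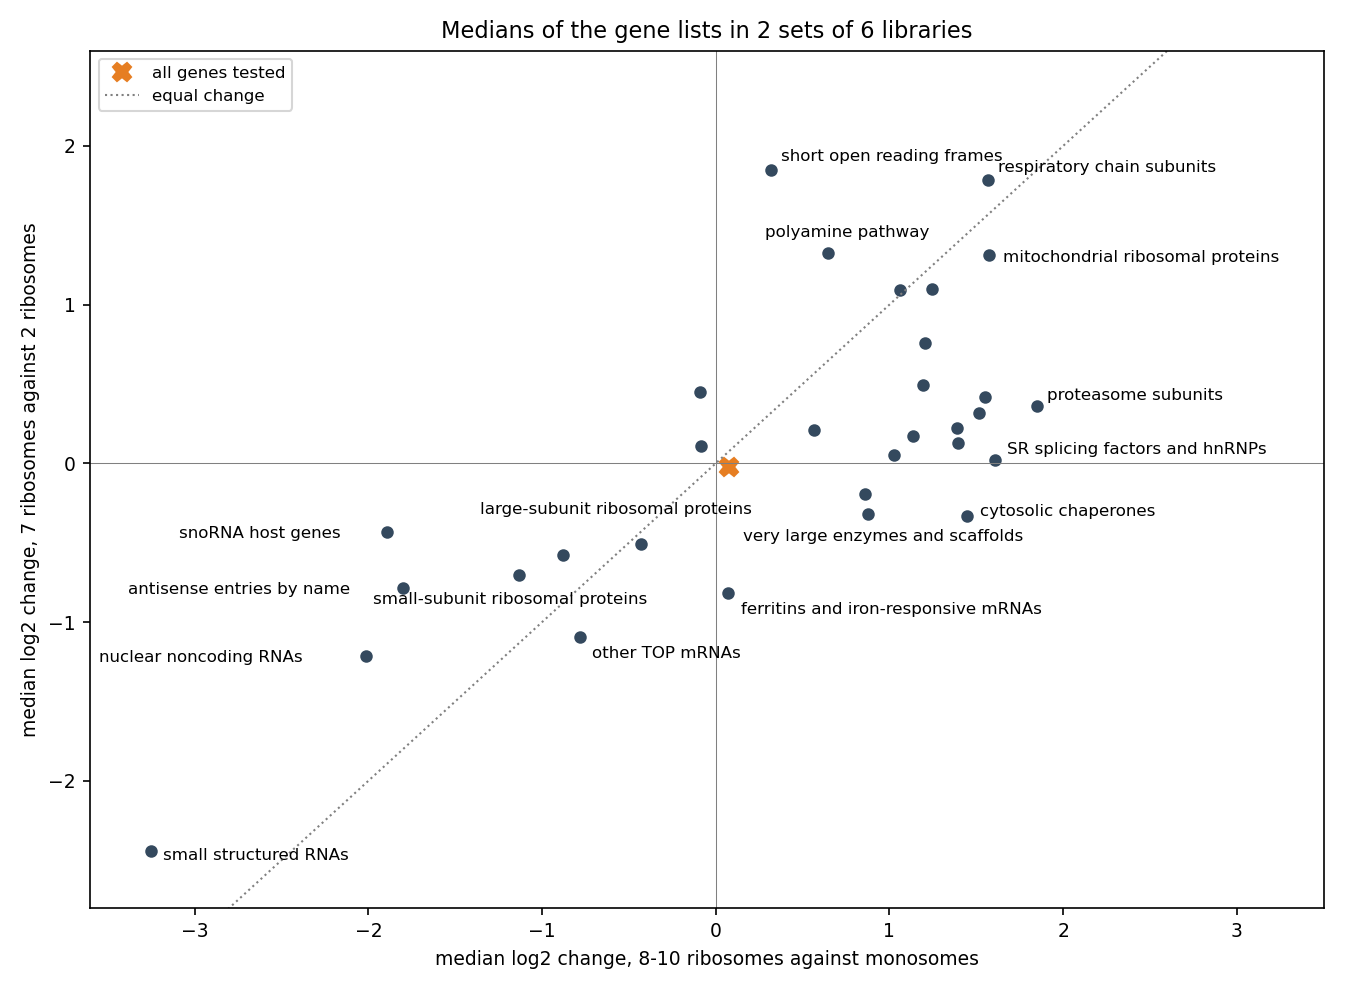
Median fitted log2 change of 31 gene lists in the 8-10 ribosome fraction against monosomes (horizontal axis) and with 7 against 2 ribosomes (vertical axis), from separate libraries of the same lines. Short open reading frames and the polyamine list lie above the line of equal change, and proteasome, chaperone and SR or hnRNP lists lie well below it.

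Respiratory chain and mitochondrial ribosomal protein genes were mostly higher in both, with 53 of 77 and 48 of 75 higher with 7 ribosomes, and with medians of 1.78 and 1.31 for 7 against 2 ribosomes and 1.57 and 1.57 for 8-10 against monosomes. Cytosolic chaperones had medians of -0.33 and 1.45, SR proteins and hnRNPs of 0.022 and 1.61, and the proteasome of 0.36 and 1.85. HNRNPD, with a change of 3.32 in the 8-10 fraction, had 0.49 (SE 0.34, adjusted p = 0.28) between 7 and 2 ribosomes. MRPL19 had -0.44 (SE 0.33, adjusted p = 0.33) between 7 and 2 ribosomes. Short open reading frames showed the reverse order, with 46 of 63 higher with 7 ribosomes at a median of 1.85 and 13 of 63 higher in the 8-10 fraction at a median of 0.32. Their median deposited length was 629 bases, and along the gradient they were highest with 7 ribosomes in WT, 6 in S34F and 3 in FS. Short coding sequences cannot hold many ribosomes, and whether these mRNAs carried the labelled number was not tested. OAZ1, ornithine decarboxylase antizyme, named after its values were seen, had 2.62 (SE 0.41, adjusted p = 5.7e-05) between 7 and 2 ribosomes and 0.34 (SE 0.38, adjusted p = 0.46) in the 8-10 fraction.

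**Figure D4:**
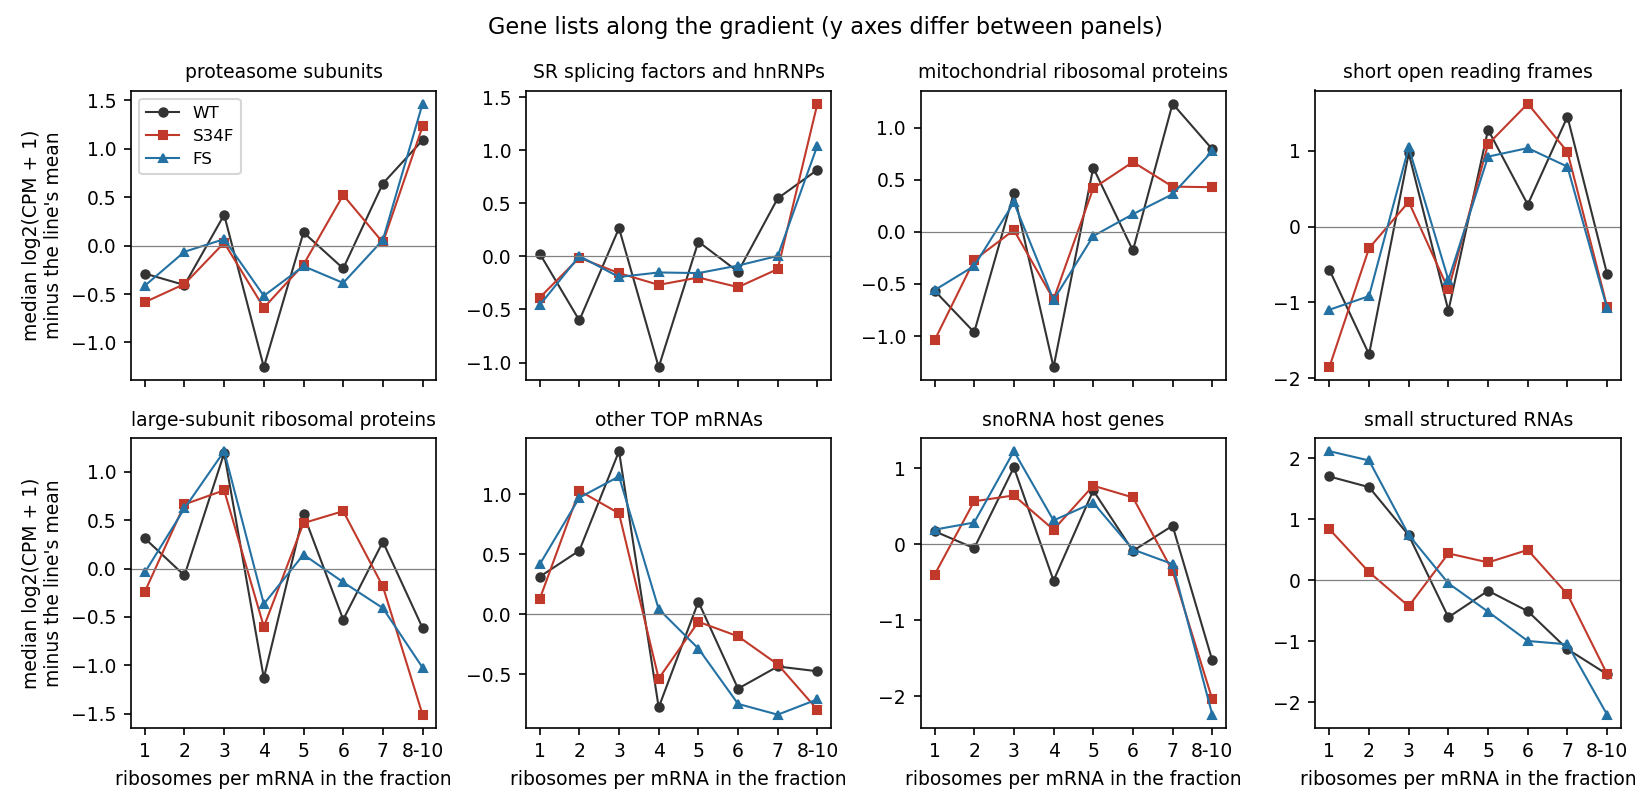
Median level of 8 gene lists in each of the 8 gradient fractions, as log2(CPM + 1) minus the mean over the fractions of the same line, with 1 curve per line and a separate vertical scale per panel. The proteasome and SR or hnRNP lists peak in the 8-10 fraction in all 3 lines, and snoRNA host genes are lowest there in all 3. Short open reading frames lie below the mean of their line at both ends and also with 2 and with 4 ribosomes.

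Along the gradient, the proteasome list had its highest median in the 8-10 fraction in each line, at 1.09, 1.23 and 1.47 above the mean of the fractions on the log2 scale. SR proteins and hnRNPs stood at -0.12 and 0.0038 in the 7-ribosome fraction of the S34F and FS lines and at 1.44 and 1.04 in the 8-10 fraction. In WT they rose earlier, to 0.55 with 7 ribosomes and 0.82 with 8 to 10. Host genes of small nucleolar RNAs stayed between -0.48 and 1.23 from monosomes to 7 ribosomes and stood at -1.53, -2.04 and -2.24 in the 8-10 fraction. Large-subunit ribosomal protein mRNAs were highest with 3 ribosomes in each line, at 1.19, 0.81 and 1.21. Their lowest point was the 8-10 fraction in S34F and FS and the 4-ribosome fraction in WT. The fraction with 4 ribosomes was low in most of these lists, at -1.26, -0.64 and -0.52 for the proteasome, so neighbouring fractions did not form smooth curves, and the part of library differences in this was not tested.

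**Figure D5:**
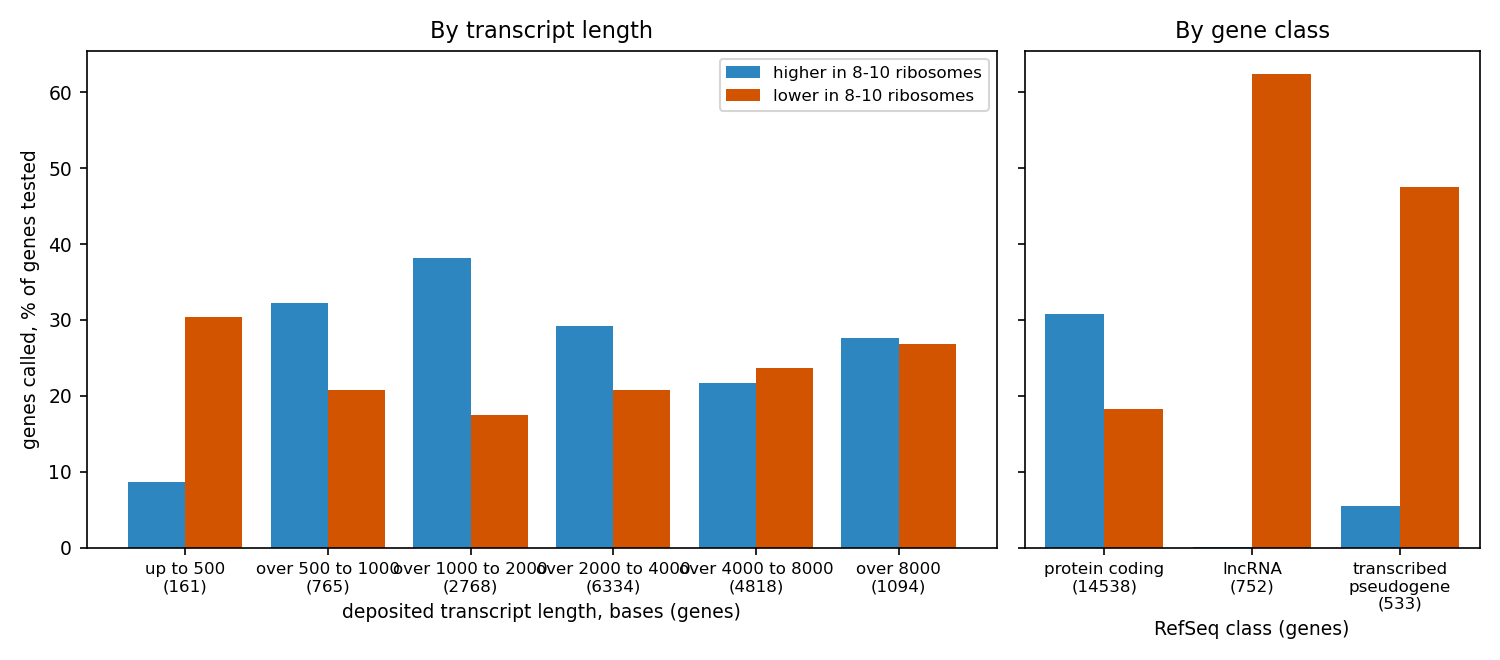
Share of genes that were higher (blue) or lower (orange) in the 8-10 ribosome fraction than in monosomes, in % of the genes tested, by deposited transcript length (left) and by RefSeq class (right), with the number of genes in brackets. The share of higher genes peaks at 38.2% over 1000 to 2000 bases, and long noncoding RNAs show 62.4% lower and 1 gene higher.

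Transcript length was related to the change without a steady trend. Genes with transcripts of up to 500 bases had a median log2 change of -0.59, with 8.70% higher and 30.4% lower. The median was 0.44 over 500 and up to 1000 bases and 0.56 over 1000 and up to 2000 bases, where 38.2% were higher and 17.5% lower. It was 0.12 up to 4000 bases, -0.17 up to 8000 and -0.12 above 8000, where 27.6% were higher and 26.9% lower. Among protein-coding genes alone, the medians in the same order of length were 0.057, 0.86, 0.80, 0.27, -0.13 and -0.084. Between 7 and 2 ribosomes the median fell over the longer bins, from 1.02 over 500 and up to 1000 bases to -0.59 above 8000 bases. The deposited length includes untranslated regions, so it is not the length that ribosomes can occupy. The level of a gene also went with the call: 25.5% of the bottom tier were lower and 6.66% higher, against 18.6% lower and 40.4% higher in the top tier.

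Cytoplasmic contacts of U2AF1 were mapped in the same series by PAR-CLIP in the Flp-In-293 line, made from HEK 293, with replicates pooled in the deposited list of 26613 clusters. Among protein-coding genes of the top tier of level, a cluster on mature mRNA was found for 58.7% of 2131 higher genes (95% Wilson interval 56.6 to 60.7%), 37.8% of 843 lower genes (34.6 to 41.2%) and 53.1% of 2141 genes not called (51 to 55.2%). In the middle tier the shares were 49.6%, 19.6% and 42.4%, and in the bottom tier 39.2%, 6.12% and 13%. Lower genes had the smallest share in each tier. Clusters in introns gave 32.6%, 23.3% and 29.7% in the top tier. The clusters come from another cell line and can be called only where a gene is expressed there, so the shares describe the overlap of 2 data sets. The intervals cover counting error only.

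The size of the change differed between the lines. The log2 ratio had an SD over genes of 1.02 in WT, 1.36 in S34F and 1.16 in FS, and genes at least 2-fold higher or lower numbered 3019 and 2633 in WT, 4018 and 4078 in S34F and 3474 and 3328 in FS. Across genes, ratios correlated at a Pearson r of 0.68 between WT and S34F, 0.83 between WT and FS and 0.77 between S34F and FS, where genes share the libraries and are not independent replicates. Of the called genes, the largest gaps between lines were in MTRNR2L1, MTRNR2L2, MTRNR2L6, MTRNR2L8 and MTRNR2L10, nuclear copies of the mitochondrial 16S ribosomal RNA gene that share nearly all reads with it and with each other. MTRNR2L1 went from 491, 967 and 2745 to 48.5, 426 and 20.4 CPM, with ratios of -3.31, -1.18 and -7.0. All 5 were lower in each line, most in FS and least in S34F, and lost the call without the FS line (adjusted p from 0.095 for MTRNR2L1 to 0.16 for MTRNR2L10). C16orf52 had ratios of -3.79, -0.044 and -2.98, with an adjusted p of 0.057 without the WT line and 0.061 without the FS line. With 1 library per line and fraction, no difference between lines was tested.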

How the data were processed

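The deposited polysome table holds expected counts per gene, 21603 entries in 24 libraries, of which 57.5% of values were not whole and were rounded. Reads were aligned with TopHat, per the submitters' processing notes; its version, the counter, annotation, genome build and use of strand are not given in the sources used here. The 28 entries turned into dates and 45 repeated entries were dropped. The 24 libraries held 2440145 to 13367574 counts, and 3 counts equal 0.253 to 0.911 CPM before TMM scaling in the 6 libraries compared. All 24 were fitted with edgeR 4.0.16 in R 4.3.3 (filterByExpr, TMM, quasi-likelihood test, terms for fraction and line). The p-values were adjusted by Benjamini-Hochberg over 15945 genes, with calls under 0.05. The common dispersion was 0.108. Ratios per line are of TMM-scaled CPM with 1 added. DESeq2 1.42.0 and limma 3.58.1 were also loaded, the first as an alternative. The fit was tested on simulated data drawn at the common dispersion, with 100 genes changed 2-fold and 100 changed 4-fold. It recovered 15% of the 2-fold and 87% of the 4-fold changes and called 0% of 14347 unchanged genes. A gene that was not called can therefore still differ by 2-fold. Far fewer genes were changed there than were called in the data, so these rates need not hold for the data. The members and lists were chosen with earlier results of these data known.

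Libraries of one fraction come from 1 line each, so the line pairs the fractions and entered the fit as a block. Deviations from the fraction means correlated at a median r of 0.41 between libraries of the same line (-0.27 to 0.79) and of -0.23 between lines. The 8-10 and monosome libraries correlated at 0.49 in WT, 0.012 in S34F and 0.37 in FS.

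Named genes were fixed genes (U2AF1, U2AF2, NPM1, GAPDH, ACTB, MALAT1, NEAT1, CXCL8), the called members of each list with the largest changes at a mean of at least 20 CPM, the 12 higher and 12 lower genes with the largest weakest ratio and the called genes with the largest gap between lines. Textbook examples and members of counts of 5 or fewer were named after their values were seen. RefSeq matched 14914 genes by symbol and 956 by synonym, and 75 were not matched. Bins of protein length were planned, but transcript length from the authors' deposited tables was used. The deposited list of PAR-CLIP clusters gives read counts per cluster, at least 4, which were not used beyond the cluster's gene and region.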

Additional observations from a re-analysis of the deposited data

Results flagged for a closer look

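The ratio of the 8-10 fraction over monosomes was above 0 in one line and below 0 in another for 6 named genes, taken here for that reason. GAPDH, MALAT1 and CXCL8 were fixed genes. TMSB4X, ODC1 and KRT14 were textbook examples or named after their values were seen. These differences between lines were not tested, since each line has 1 library per fraction. The log2 ratios in WT, S34F and FS were 0.25, -0.50 and 0.80 for GAPDH and -0.31, 0.33 and -0.40 for MALAT1. They were -1.15, 0.87 and -1.08 for CXCL8, the chemokine interleukin 8. CXCL8 had 4.85, 0.175 and 4.33 CPM in monosomes and 1.64, 1.15 and 1.52 CPM in the 8-10 fraction. Its S34F monosome value lies under 3 counts (0.606 CPM before TMM scaling). Without the S34F line CXCL8 was called lower (log2 change -1.51, adjusted p = 0.032). TMSB4X, thymosin beta 4 with a short coding sequence, had -1.5, 0.38 and -1.28, and was called lower without the S34F line (adjusted p of 0.0069) and under several other settings. ODC1, ornithine decarboxylase, had -1.13, 0.89 and -0.52, and its monosome level was 551, 59.7 and 125 CPM. KRT14 had 1.86, -0.97 and 1.03. In all 6 genes the S34F line was the one with the opposite sign. Its ratio was higher than in the other lines in MALAT1, CXCL8, TMSB4X and ODC1 and lower in GAPDH and KRT14. Since the 6 were picked for differing signs and the share over all genes was not counted, this describes these genes and not the line. GAPDH, TMSB4X and KRT14 have near-identical copies, so their levels are uncertain.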

How the results depend on the processing

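Settings were changed one at a time: upper-quartile scaling, library totals, no filter on low counts, at least 1 CPM in each of the 6 libraries, no block for the line, the 6 libraries alone, DESeq2, no entries with isolated zeros, and each line left out. Without the block, which ignores the pairing by line, 2735 genes were higher (7 against 2 ribosomes: 2355 higher, 989 lower, 909 of them lower by at least 2-fold). The unblocked lists had 10 small-subunit genes lower and fewer genes higher: 17 synthetases, 11 of cholesterol synthesis, 21 of mitosis, 19 of the core spliceosome, 8 upstream-ORF, 1 polyamine, 5 immediate-early, 1 cytokine, 12 basal, 12 S100, 13 very large and 4 short-frame genes. Upper-quartile scaling gave 2165 genes higher by at least 2-fold (7 against 2 ribosomes: 2000 higher and 2957 lower by at least 2-fold, 3587 lower in all), 33 large-subunit genes lower, and 17 synthetases, 4 immediate-early and 14 very large genes higher. Between 7 and 2 ribosomes, genes lower by at least 2-fold numbered 2362 with library totals, 2338 with at least 1 CPM and 2356 with DESeq2. At least 1 CPM gave 33 large-subunit and 196 antisense genes lower and 7 immediate-early genes higher, and no filter 8 cytokines higher.

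Leaving out each line gave 1939 to 2734 genes lower, 1851 to 2660 by at least 2-fold. Between 7 and 2 ribosomes it gave 1505 to 2968 higher and 295 to 2122 lower, with 1505 to 2834 and 292 to 2109 by at least 2-fold. Lists ranged over 11 to 19 small-subunit genes lower, 15 to 22 synthetases higher, 10 to 17 glycolysis, 11 to 14 upstream-ORF, 4 to 9 immediate-early, 3 to 5 cytokine, 13 to 18 basal and 6 to 12 short-frame genes higher, and 195 to 255 antisense and 46 to 61 solute carrier genes lower.

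Length-bin medians, as differences from the median of all genes, moved most without a filter, which tests 21126 genes: -0.15, 0.84, 0.98 and 0.57 for the 4 shorter bins, and 0.28 and 0.33, with the sign turned, for the bins over 4000 to 8000 and over 8000 bases. With at least 1 CPM they were -0.94 up to 500 bases, 0.41 over 1000 to 2000, -0.27 over 4000 to 8000 and -0.064 over 8000. The bin over 4000 to 8000 bases was at -0.24 with library totals, -0.26 without the block, -0.27 in the 6 libraries and -0.25 with DESeq2, and the bin over 8000 at -0.37 in the 6 libraries. Leaving out a line gave -0.77 to -0.45, 0.18 to 0.47, 0.43 to 0.63, 0.083 to 0.12, -0.24 to -0.14 and -0.19 to -0.12 from the shortest to the longest bin. Relative to all genes, the median of cytokines turned to 0.34 without a filter, 0.18 with at least 1 CPM and ran from -0.13 to 0.024 with a line left out, highest without S34F, that of zinc finger genes to 0.032 without a filter, and that of solute carriers to 0.35 without a filter and ran from -0.20 to 0.030 with a line left out, highest without S34F. With at least 1 CPM in each library, relative medians were 0.068 for immediate-early, 0.16 for polyamine, 0.42 for basal and 0.59 for synthetase genes. In the main fit these were 0.49, 0.57, 0.79 and 0.95. That of large-subunit genes also fell, from -0.95 to -1.37. Where no construction of the setting shows it, the cause was not tested. DESeq2 gave 4402 genes higher and 4098 lower. A gene with fewer than 3 counts in a library could not be placed there at this depth.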

Other observations

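The cytoplasmic PAR-CLIP clusters could also be read by region of the mRNA. Among protein-coding genes of the top tier of mean level, a cluster in the coding sequence was found for 45.0% of genes higher in the 8-10 fraction, 25.4% of lower genes and 39.7% of genes not called. Clusters in the 3-prime UTR or at the stop codon were found for 30.3%, 17.2% and 24.2%, and clusters in the 5-prime UTR or at the start codon for 12.6%, 6.29% and 11.2%. The lower genes had the smallest share in each of these regions. The clusters come from Flp-In-293 cells, and the shares are a description with no test.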
